A study of Mus musculus with 12 samples.

Results

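The respiratory chain genes described here are the subunits of complexes I to V of oxidative phosphorylation, encoded partly in the nucleus and partly in mitochondrial DNA. They were taken by gene name: names starting with Nduf and a subunit letter and number, Sdha to Sdhd, and names starting with Uqcr, Cox4 to Cox8, Atp5, or mt-Nd, mt-Co, mt-Cytb or mt-Atp. Of 53465 genes in the deposited table, 102 names matched, 6 of them pseudogene names ending in -ps, which were left out. A further 10 names did not reach a value of 1 in 3 libraries, which left 86 members. These are 35 nuclear genes of complex I, 4 of complex II, 8 of complex III, 16 of complex IV and 16 of complex V, and 7 mitochondrially encoded genes. Ndufa4 and Ndufa4l2 were counted with complex IV, where the NDUFA4 protein is now placed. Of the 86 members, 84 had a value of at least 1 in all 12 libraries.

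RNA-seq was run on peritoneal macrophages, phagocytes of the belly cavity, taken from C57BL/6 mice in postnatal week 10. The 12 libraries form 4 groups of 3: Lyz2Cre control, Lyz2Cre with LPS, Lyz2Cre-BHLHE40-Fl control and Lyz2Cre-BHLHE40-Fl with LPS. All 12 libraries carry the Lyz2Cre label, Cre recombinase expressed from the lysozyme 2 locus of myeloid cells, and the BHLHE40-Fl label stands for a loxP-flanked (floxed) allele of Bhlhe40, which encodes a transcription factor that binds E-box DNA. LPS is lipopolysaccharide, the outer membrane component of Gram-negative bacteria that activates TLR4. The labels used here give no dose and no time for it. Each deposited value is a read count divided by a factor of its library, and libraries held 20489417 to 29354869 reads. The labels do not say whether replicates came from separate animals or cultures, so the p-values rest on the spread among these libraries alone, which may be technical.

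Bhlhe40 RNA had values of 4886, 4737 and 5306 in Lyz2Cre controls and of 8046, 7617 and 8016 in Lyz2Cre-BHLHE40-Fl controls, so it was not lower in the second group. With LPS it was 2544, 2212 and 2644 in Lyz2Cre and 1956, 2415 and 2327 in Lyz2Cre-BHLHE40-Fl, which overlap. Which exons are flanked by loxP is not given in the sources used here, so a count over the whole gene does not check the deletion, and groups are named below by their labels. Markers of other cells moved with the genotype label. The summed value of 15 mesothelial and stromal markers was 1951 to 2122 in Lyz2Cre controls, 3133 to 4597 in Lyz2Cre with LPS, 11566 to 14884 in Lyz2Cre-BHLHE40-Fl controls and 12178 to 16065 in Lyz2Cre-BHLHE40-Fl with LPS. All 15 were called higher in Lyz2Cre-BHLHE40-Fl under both treatments, and Msln, Upk3b and Krt18 were at 0 in all 3 Lyz2Cre controls. The summed value of 10 macrophage markers was 137075 to 149935 in Lyz2Cre controls and 66745 to 76506 in Lyz2Cre-BHLHE40-Fl controls, and with LPS it was 198872 to 210879 and 120457 to 123596. Of the 10, 9 were called lower in Lyz2Cre-BHLHE40-Fl under both treatments. With LPS 6 of the 10 were called higher in Lyz2Cre and 7 in Lyz2Cre-BHLHE40-Fl, and the LPS change itself differed between the labels, with 6 of 10 called higher in the interaction and a median of 0.97. For mesothelium and stroma the interaction called 1 of 15 higher and 3 lower. In the order Lyz2Cre control, Lyz2Cre LPS, Lyz2Cre-BHLHE40-Fl control and Lyz2Cre-BHLHE40-Fl LPS, endothelial and muscle markers (10 summed, 8 tested) summed to 1289 to 1354, 2568 to 2796, 4738 to 5619 and 4591 to 5218. In that order the neutrophil markers (9 summed, 4 tested) summed to 421 to 755, 980 to 1233, 69.6 to 110 and 136 to 234, and those of T and B lymphocytes (12 summed and tested) to 145 to 162, 131 to 165, 34.9 to 63.9 and 53.7 to 77.7. In bulk RNA, fewer cells of a type and less RNA per cell cannot be told apart. Replicates differed most in Lyz2Cre-BHLHE40-Fl with LPS, where a chi-square per degree of freedom over genes was 72.2 between replicates 1 and 2, 33.5 between 1 and 3 and 38.4 between 2 and 3, against 7.35 to 36.4 in the other groups.

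Complex I takes electrons from NADH and complex II takes them from succinate as part of the TCA cycle. Both pass them through ubiquinone to complex III, cytochrome c and complex IV, which reduces oxygen, and complex V makes ATP from the proton gradient. Mitochondrial DNA encodes core subunits of complexes I, III, IV and V, while complex II is wholly nuclear, so most complexes need gene products from both genomes. In macrophages given LPS, the chain is known for a shift from ATP synthesis towards the production of reactive oxygen species, with succinate as a fuel for complex II.

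The subunit genes took a smaller share of all reads in the LPS groups. The 79 nuclear members together held 0.598%, 0.521% and 0.577% of the reads in Lyz2Cre controls and 0.383%, 0.391% and 0.380% in Lyz2Cre with LPS. The Lyz2Cre-BHLHE40-Fl libraries held 0.538%, 0.578% and 0.537% in controls and 0.454%, 0.385% and 0.412% with LPS. The control and LPS libraries did not overlap under either label. The 7 mitochondrially encoded members held 0.470%, 0.490% and 0.776% in Lyz2Cre controls and 0.331%, 0.296% and 0.296% with LPS. They held 0.814%, 0.466% and 0.632% in Lyz2Cre-BHLHE40-Fl controls and 0.331%, 0.392% and 0.386% with LPS. The LPS libraries were again all below the controls, and the controls spread widely. These shares are a description, with no test over the summed members.

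**Figure D1:**
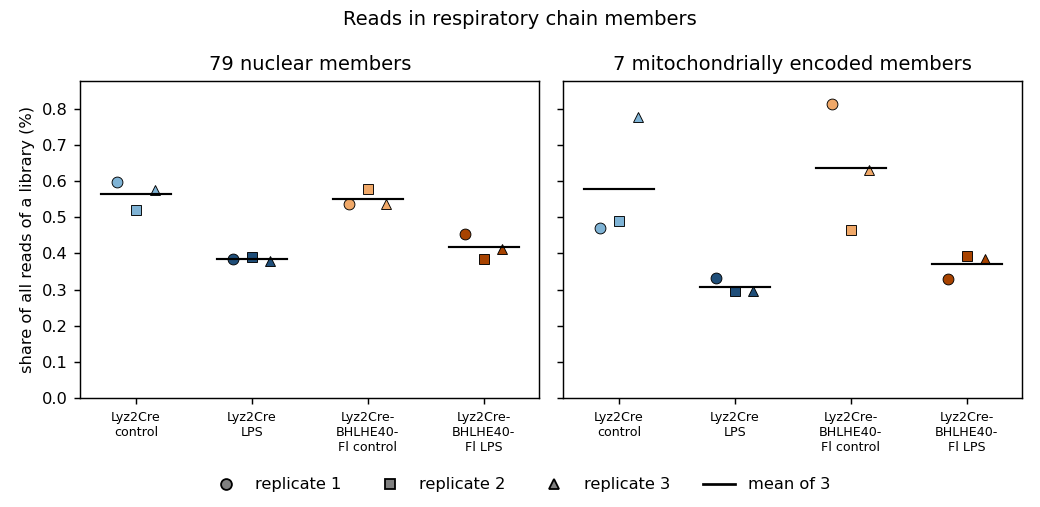
Share of all reads of a library (%) in the 79 nuclear and the 7 mitochondrially encoded members, with 1 point per library, the marker shape giving the replicate number and the line the mean of 3 libraries. Every LPS library lies below every control library of its label, with nuclear shares of 0.380% to 0.454% against 0.521% to 0.598%.

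The deposited values carry another reference than a share of reads. The labels and notes used here do not say how the factor of each library was made. The summed value per library averaged 22693602 in Lyz2Cre controls against 37605645 with LPS, and 20073802 against 30832914 in Lyz2Cre-BHLHE40-Fl. With every library brought to an equal total, the median log2 change of all 20419 tested genes for LPS moved from 0.00 to -0.58 in Lyz2Cre, and in Lyz2Cre-BHLHE40-Fl from -0.05 to -0.56. "Higher" and "lower" below are on the deposited scale, on which the median gene hardly moved with LPS, unless equal totals are named.

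On the deposited scale LPS in Lyz2Cre split the nuclear subunits. Of 79, 30 were called by limma at an adjusted p below 0.05, against 48.9% of all genes tested. They were 21 higher (26.6%, against 25.0% of all genes) and 9 lower (11.4%, against 23.9%). The median log2 change of the 79 was 0.09. With equal totals 0 were called higher (against 11.7% of all genes) and 61 lower (against 46.5%), with a median of -0.63, which was 0.05 below the median of all genes. In Lyz2Cre-BHLHE40-Fl, 50.5% of all genes were called with LPS. Of the 79 members, 27 were higher (34.2%, against 24.9% of all genes) and 10 lower (12.7%, against 25.6%), with a median of 0.13. Equal totals gave 0 higher (against 12.8% of all genes) and 52 lower (against 46.8%) there, with a median of -0.46, which was 0.10 above that of all genes. The 2 LPS comparisons share no library. Of the nuclear members, 16 were called higher in both, 6 lower in both and 35 in neither. A further 1, Sdha, was lower in Lyz2Cre and higher in Lyz2Cre-BHLHE40-Fl. The share of all genes called the same way in both was not counted, so these shared calls have no background beside them.

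**Figure D2:**
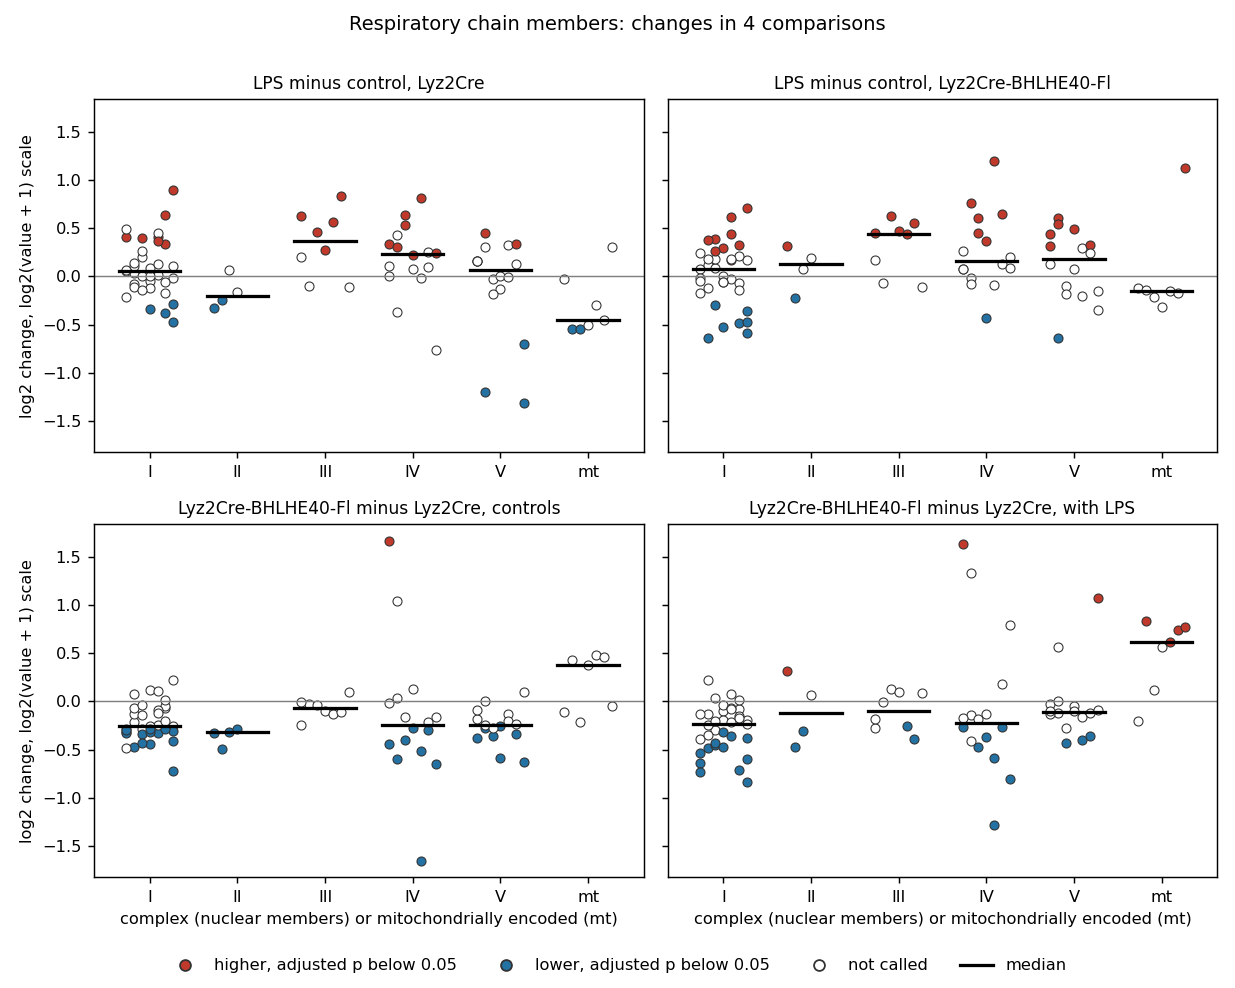
Log2 change of each member on the log2(value + 1) scale (1 point per gene; red higher and blue lower at a limma adjusted p below 0.05, white not called; black line, the median of the class), by complex for nuclear members and for the mitochondrially encoded members (mt), in 4 comparisons. The complex III median lies above 0 in both LPS panels, at 0.36 and 0.44, and Ndufa4 of complex IV is the high point at 1.67 and 1.64 in the genotype panels.

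Complex III, ubiquinol-cytochrome c reductase, had 5 of 8 nuclear members called higher with LPS under each label (against 25.0% of all genes in Lyz2Cre and 24.9% in Lyz2Cre-BHLHE40-Fl) and 0 lower (against 23.9% and 25.6%), with medians of 0.36 and 0.44. With equal totals 0 were called higher, and 4 of 8 in Lyz2Cre and 3 of 8 in Lyz2Cre-BHLHE40-Fl were called lower, against 46.5% and 46.8% of all genes. Uqcrfs1, the Rieske iron-sulfur protein that carries electrons to cytochrome c1, had values of 1514, 1196 and 1332 in Lyz2Cre controls and 2269, 2487 and 2419 with LPS. Every LPS library was above every control, at a log2 change of 0.83 (SE 0.10, limma adjusted p = 9.31e-07). In Lyz2Cre-BHLHE40-Fl Uqcrfs1 went from 1174, 1419 and 1144 to 1937, 1664 and 1882, a log2 change of 0.56 (SE 0.10, limma adjusted p = 9.78e-05). The difference between these LPS changes was -0.28 and did not pass (limma adjusted p = 0.192). Uqcrc2, a core protein of the complex, rose by 0.56 and 0.44, its partner Uqcrc1 by 0.27 and 0.47, and the small subunit Uqcrq by 0.62 and 0.45 in Lyz2Cre and Lyz2Cre-BHLHE40-Fl. Uqcrb, another small subunit, rose by 0.46 and 0.62, and the first of these calls was lost without any 1 of Lyz2Cre control replicates 2 and 3 and Lyz2Cre LPS replicates 1 and 2 (limma adjusted p up to 0.155). Uqcr10, Uqcr11 and Uqcrh were not called, with changes between -0.11 and 0.20.

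With equal totals Uqcrfs1 stood at 0.10 and -0.06, against medians of all genes of -0.58 and -0.56. The level of Uqcrfs1 could also be set against another subunit of the same library, which needs no scaling. Uqcrfs1 was named for its rise with LPS, and Sdhb was called lower in these same libraries. The direction of their ratio follows from those calls, so the ratio is a description and adds no separate support. The ratio of Uqcrfs1 to Sdhb, the iron-sulfur subunit of complex II, was 0.496 ± 0.058 in Lyz2Cre controls and 1.04 ± 0.020 with LPS (SD, n = 3), and 0.646 ± 0.103 and 1.10 ± 0.065 in Lyz2Cre-BHLHE40-Fl.

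Complex II, succinate dehydrogenase, had a member whose LPS change differed between the labels. Its flavoprotein Sdha, which oxidises succinate, had values of 4193, 4243 and 3934 in Lyz2Cre controls and 3260, 3133 and 3504 with LPS. It fell by 0.32 on the log2 scale (SE 0.09, limma adjusted p = 0.00868). In Lyz2Cre-BHLHE40-Fl controls Sdha was 3165, 3483 and 3200, and with LPS 3368, 4615 and 4407, so that replicate 1 lay within the control range and replicates 2 and 3 above it. Its log2 change there was 0.32 (SE 0.09, limma adjusted p = 0.00920), and the call was lost without LPS replicate 2 or 3 (limma adjusted p up to 0.0646). With equal totals Sdha fell under both labels, by 1.05 in Lyz2Cre and by 0.30 in Lyz2Cre-BHLHE40-Fl. The difference between the LPS changes of Sdha was 0.64 (SE 0.13, limma adjusted p = 0.00218), was called under each of the 5 scalings tried, at 0.61 to 0.75, and was kept with each library left out in turn.

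Sdhb, which passes electrons from the flavin to ubiquinone, was lower with LPS under both labels. It went from 2695, 2549 and 2919 to 2211, 2341 and 2350 in Lyz2Cre, with no overlap, and from 2000, 1855 and 1950 to 1836, 1539 and 1597 in Lyz2Cre-BHLHE40-Fl, again with no overlap. The log2 changes were -0.24 (limma adjusted p = 0.0138) and -0.23 (limma adjusted p = 0.0193). When replicate 3 of the Lyz2Cre controls or replicate 1 of Lyz2Cre with LPS was left out, the first was no longer called (limma adjusted p up to 0.0655), and without control replicates 1 or 3 or LPS replicates 2 or 3 of Lyz2Cre-BHLHE40-Fl the second was not (up to 0.0974). Both calls held under the 5 scalings, and equal totals made them larger, at -0.97 and -0.85. The membrane anchors Sdhc and Sdhd were not called with LPS on the deposited scale, with changes of 0.07 and -0.16 in Lyz2Cre and 0.07 and 0.19 in Lyz2Cre-BHLHE40-Fl. With equal totals all 4 complex II genes were called lower with LPS under both labels, against 46.5% of all genes in Lyz2Cre and 46.8% in Lyz2Cre-BHLHE40-Fl. Within the reads of nuclear subunits, complex II made up 8.85% ± 0.458 in Lyz2Cre controls and 6.85% ± 0.233 with LPS, against 8.02% ± 0.257 and 7.67% ± 0.626 in Lyz2Cre-BHLHE40-Fl (SD, n = 3).

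**Figure D3:**
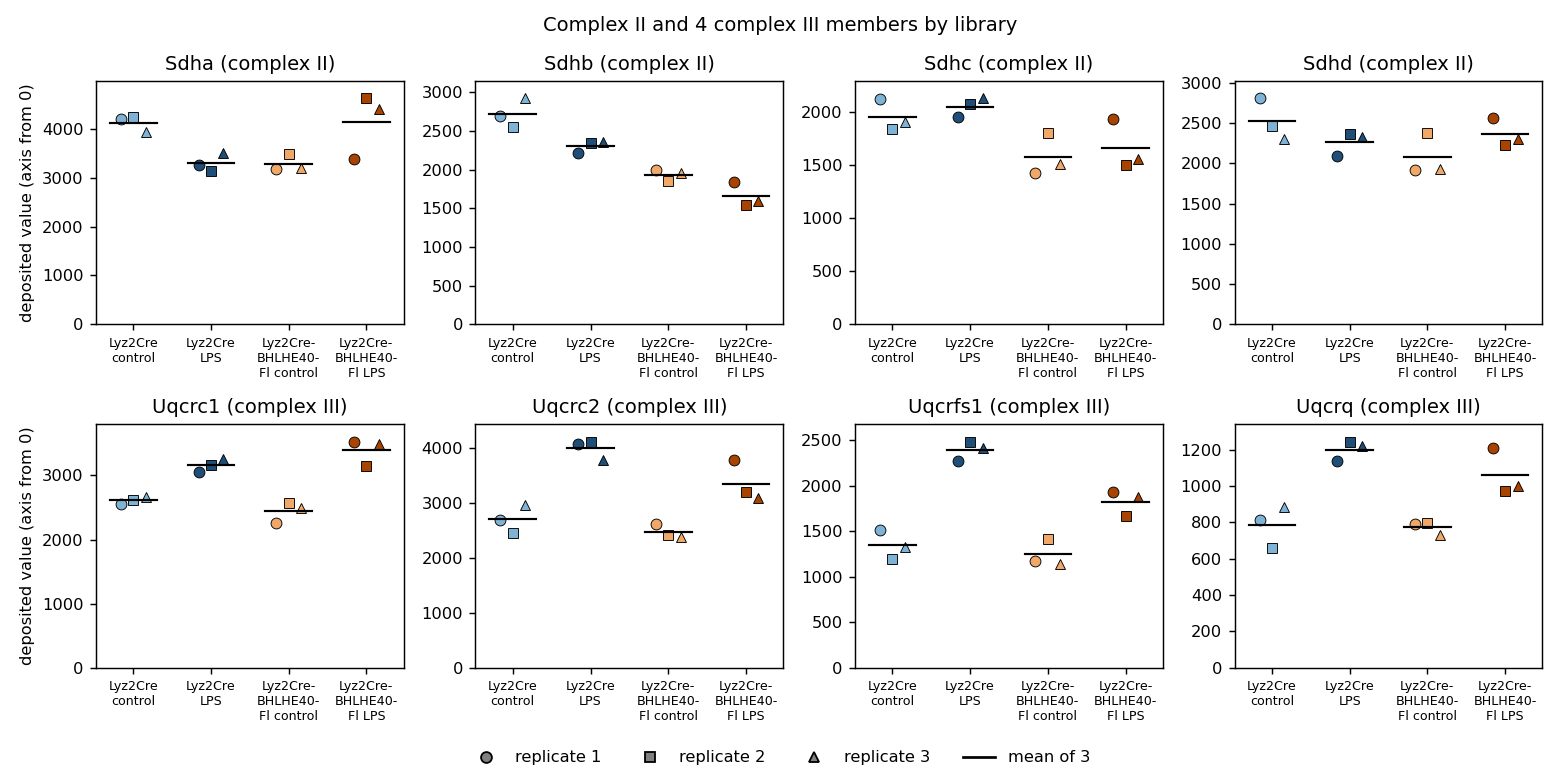
Deposited values (y axis from 0) of the 4 complex II genes and 4 complex III genes in the 12 libraries, with 1 point per library, the marker shape giving the replicate number and the line the mean of 3. Sdha falls with LPS in Lyz2Cre and is above the controls in 2 of 3 LPS libraries of Lyz2Cre-BHLHE40-Fl, while Uqcrfs1 is above its controls in every LPS library.

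Complex I members went both ways with LPS, with 7 of 35 called higher and 4 lower in Lyz2Cre (against 25.0% and 23.9% of all genes) and 9 higher and 7 lower in Lyz2Cre-BHLHE40-Fl (against 24.9% and 25.6%). Equal totals gave 0 higher under both labels, 30 lower in Lyz2Cre and 28 lower in Lyz2Cre-BHLHE40-Fl, against 46.5% and 46.8% of all genes lower. Ndufs4, an accessory subunit needed for a stable complex, had the highest change of the members of complex I. It went from 870, 673 and 760 to 1344, 1481 and 1462 in Lyz2Cre and from 539, 662 and 534 to 1117, 892 and 847 in Lyz2Cre-BHLHE40-Fl. No LPS library overlapped the controls, and the log2 changes were 0.90 (SE 0.12, limma adjusted p = 3.07e-06) and 0.71 (SE 0.12, limma adjusted p = 4.54e-05). With equal totals they were 0.17 and 0.10 and were not called. Ndufs3, a core subunit of the peripheral arm, rose by 0.64 in Lyz2Cre (limma adjusted p = 7.03e-05) and changed by 0.21 in Lyz2Cre-BHLHE40-Fl (limma adjusted p = 0.110). Ndufa9 rose by 0.41 and 0.45, and Ndufv1, the NADH-binding flavoprotein, by 0.37 in Lyz2Cre. Ndufb6, of the membrane arm, rose by 0.62 in Lyz2Cre-BHLHE40-Fl, a call lost without control replicate 1 or 3 or LPS replicate 1 (limma adjusted p up to 0.0586).

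The complex I members called lower with LPS were called lower under each of the 5 scalings tried. Ndufv3, which belongs to the NADH-binding module, went from 1453, 1168 and 1343 to 878, 1036 and 933 in Lyz2Cre and from 853, 758 and 787 to 569, 492 and 536 in Lyz2Cre-BHLHE40-Fl, with log2 changes of -0.47 (limma adjusted p = 0.000359) and -0.59 (limma adjusted p = 4.09e-05). Ndufb10, of the membrane arm, fell by 0.38 and by 0.49, Ndufb8 fell by 0.29 and by 0.36, and Ndufs8, an iron-sulfur subunit, fell by 0.34 and by 0.53. These 4 genes were called lower under both labels and under each of the 5 scalings (deposited, equal totals, quantile, TMM, and edgeR on recovered reads). The Ndufb8 call in Lyz2Cre was lost without control replicate 1 or LPS replicate 2 (limma adjusted p up to 0.0766). Ndufa6, Ndufb11 and Ndufs7 were called lower in Lyz2Cre-BHLHE40-Fl under the 5 scalings. Ndufa6 was 1423, 1220 and 1528 in Lyz2Cre controls and 1341, 1357 and 1244 with LPS, which overlap, but 1671, 1440 and 1291 in Lyz2Cre-BHLHE40-Fl controls against 1040, 903 and 873 with LPS. Its LPS change was lower by 0.56 in Lyz2Cre-BHLHE40-Fl than in Lyz2Cre (interaction -0.56, SE 0.14, limma adjusted p = 0.00978), a difference called under the 5 scalings and kept with each library left out.

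Complex IV, cytochrome c oxidase, had 7 of 16 nuclear members called higher and 0 lower with LPS in Lyz2Cre (against 25.0% and 23.9% of all genes), and 6 higher and 1 lower in Lyz2Cre-BHLHE40-Fl (against 24.9% and 25.6%). Equal totals gave 0 higher under both labels (against 11.7% and 12.8% of all genes), with 9 and 8 lower (against 46.5% and 46.8%). Cox5b, which sits on the matrix side of the complex, was 698, 580 and 590 in Lyz2Cre controls and 977, 995 and 925 with LPS, and 547, 612 and 513 against 857, 840 and 850 in Lyz2Cre-BHLHE40-Fl. The groups did not overlap, and the log2 changes were 0.64 (limma adjusted p = 8.00e-06) and 0.61 (limma adjusted p = 1.28e-05). With equal totals they were -0.09 and -0.01 and were not called. Cox7c, a small subunit, rose by 0.65 in Lyz2Cre-BHLHE40-Fl, which was lost without control replicate 2 or LPS replicate 1 (limma adjusted p up to 0.0926). Cox5a, another nuclear subunit of the complex, was 1774, 1432 and 1409 against 1823, 1988 and 1860 in Lyz2Cre. Its change of 0.30 reversed to -0.42 with equal totals. The call was lost without control replicate 2 or 3 or LPS replicate 2 (limma adjusted p up to 0.0732). In Lyz2Cre-BHLHE40-Fl Cox5a was 979, 1173 and 899 against 1816, 1661 and 1684, a change of 0.77 (limma adjusted p = 3.75e-06). The difference was 0.46 (SE 0.14, limma adjusted p = 0.0291) and was called under the 5 scalings, but it was lost when any 1 of 6 libraries was left out (limma adjusted p up to 0.0895): Lyz2Cre control replicate 1, Lyz2Cre LPS replicates 1 and 3, Lyz2Cre-BHLHE40-Fl control replicates 1 and 3 and LPS replicate 1. Cox7a2l, a subunit paralog known for its role in supercomplexes of III and IV, was the member called lower in Lyz2Cre-BHLHE40-Fl, at -0.43 (limma adjusted p = 0.0141), and this was lost without control replicate 1 or LPS replicate 2 or 3 (up to 0.0903).

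Several complex IV subunits exist as a ubiquitous form and a form named for heart and muscle, testis or hypoxia. In Lyz2Cre controls Cox4i1 averaged 5824 and Cox8a 2341. Their relatives Cox4i2, Cox8b and Cox8c were listed at 0 in all 12 libraries, which gives no level. Cox7a1, the heart and muscle form, averaged 18.7 against 1900 for Cox7a2, and Cox6b2, the testis form, averaged 1.30 against 3697 for Cox6b1. Cox6a2, the heart and muscle form of Cox6a1, was a low-level isoform that was called in each of the 4 comparisons between groups. It had values of 41.6, 54.3 and 81.2 in Lyz2Cre controls, 103, 102 and 98.0 with LPS, 15.3, 21.3 and 15.9 in Lyz2Cre-BHLHE40-Fl controls and 50.3, 35.3 and 38.8 with LPS. Both LPS groups were above their controls, and both Lyz2Cre-BHLHE40-Fl groups below the Lyz2Cre group of the same treatment. Its log2 changes were 0.82 (SE 0.26, limma adjusted p = 0.0154) and 1.20 (SE 0.26, limma adjusted p = 0.000923) with LPS, and -1.66 in controls and -1.28 with LPS between the labels (SE 0.26 each). The LPS call in Lyz2Cre was lost without control replicate 1 (limma adjusted p = 0.0924), and with equal totals neither LPS change was called (0.10 and 0.60).

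Complex V, ATP synthase, had 2 of 16 members called higher and 3 lower with LPS in Lyz2Cre (against 25.0% and 23.9% of all genes) and 6 higher and 1 lower in Lyz2Cre-BHLHE40-Fl (against 24.9% and 25.6%). Equal totals gave 0 higher under both labels (against 11.7% and 12.8% of all genes), with 14 and 9 lower (against 46.5% and 46.8%). Atp5b, the catalytic beta subunit, was 15613, 15439 and 14878 in Lyz2Cre controls and 20993, 21417 and 20398 with LPS, and 12181, 12912 and 12868 against 19546, 18478 and 19718 in Lyz2Cre-BHLHE40-Fl. The changes were 0.45 (limma adjusted p = 7.02e-06) and 0.60 (limma adjusted p = 1.79e-07), but their direction depended on the scaling. In Lyz2Cre the change was -0.28 with equal totals and -0.67 after quantile normalization, and in Lyz2Cre-BHLHE40-Fl it was -0.01 and -0.41. Atp5f1, of the stator stalk, rose by 0.34 and 0.32 on the deposited scale. Atp5g1, Atp5g2 and Atp5g3 encode the same mature c-ring protein from 3 genes. Atp5g3 carried most of it, with 1310 in Lyz2Cre controls, against 50.7 for Atp5g1 and 15.1 for Atp5g2. Of the 50-base stretches of Atp5g1 and Atp5g2 transcripts, 11.6% and 14.8% also occur in other annotated genes, so their levels are uncertain. This limit is not particular to them. Of the 79 nuclear members, 34 shared no stretch, 43 shared up to 50% and 2 over 50%. Among genes named above, Uqcrb shared 43.4%, Ndufs3 39.7%, Atp5f1 38.7%, Ndufb6 34.1% and Cox5a 32.0%. Atp5g1 was 54.7, 43.0 and 54.4 in Lyz2Cre controls and 20.8, 16.6 and 21.8 with LPS, a log2 change of -1.32 (SE 0.32, limma adjusted p = 0.00240) that was called under the 5 scalings. In Lyz2Cre-BHLHE40-Fl it was 31.3, 89.2 and 55.8 against 48.0, 32.2 and 48.8, which overlap, and the difference between the LPS changes did not pass (0.98, SE 0.46, limma adjusted p = 0.167). Atp5s, coupling factor B, had levels of 65.0 ± 5.9 and 27.8 ± 4.3 in Lyz2Cre and 65.3 ± 8.4 and 41.8 ± 8.0 in Lyz2Cre-BHLHE40-Fl (control and LPS, SD, n = 3), with log2 changes of -1.20 (limma adjusted p = 0.000265) and -0.64 (limma adjusted p = 0.0282). The second was lost without control replicate 1 or LPS replicate 3 of Lyz2Cre-BHLHE40-Fl (up to 0.127). Atp5j, coupling factor 6, differed in its LPS change by 0.49 (limma adjusted p = 0.0491), a call that was lost when any 1 of 8 libraries was left out (up to 0.127), namely Lyz2Cre control replicates 1 and 3, Lyz2Cre LPS replicates 1 and 2, and replicates 1 and 3 of the control and 2 and 3 of the LPS group of Lyz2Cre-BHLHE40-Fl.

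Per kilobase of annotated exons, the highest nuclear members belonged to complexes IV and V in each group. In Lyz2Cre controls Cox6b1 stood at 5221 per kilobase, Atp5a1 at 4378, Cox8a at 3781, Cox4i1 at 3757 and Atp5b at 3613, with SDs of 91 to 549, so that Cox8a, Cox4i1 and Atp5b did not differ beyond their spread. Complex medians in that group were 576 per kilobase for I, 1107 for II, 1025 for III, 593 for IV and 599 for V, and the median of the 7 mitochondrially encoded genes was 3634 per kilobase.

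Between the genotype labels, more nuclear subunits were called lower than higher in Lyz2Cre-BHLHE40-Fl on the deposited scale. With equal totals the counts kept this order in controls and turned round with LPS, where 30.4% of all genes were called higher and 11.0% lower. On both scales and under both treatments the median of the subunits lay below that of all genes. In controls, where 31.6% of all genes were called, 32 of 79 were called lower (40.5%, against 16.6% of all genes) and 1 higher (1.27%, against 15.0%), with a median log2 difference of -0.25, and 67 of 79 were below 0. The 32 were 13 of complex I, all 4 of complex II, 8 of complex IV and 7 of complex V, and 0 of complex III. With equal totals 8 were called lower (against 12.4% of all genes) and 4 higher (against 25.0%). The median was then -0.07, which is 0.24 below that of all genes (0.17), against 0.25 below on the deposited scale. Without Lyz2Cre control replicate 1 the count of lower calls was 18, and without Lyz2Cre-BHLHE40-Fl control replicate 3 it was 21. The markers of mesothelium and stroma were higher and those of macrophages lower in the same libraries, as given above, and their part in these differences was not tested.

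Of these calls, 8 held under the 5 scalings: Ndufa12 and Ndufv3 of complex I, Sdhb, Cox5a, Cox6a2, Cox7b and Cox8a of complex IV, and Atp5j. Ndufv3 had the largest difference in complex I, at 1453, 1168 and 1343 in Lyz2Cre against 853, 758 and 787 in Lyz2Cre-BHLHE40-Fl, a difference of -0.72 on the log2 scale (SE 0.09, limma adjusted p = 8.51e-06). Cox8a, a small subunit of the membrane core, was 2490, 2108 and 2425 against 1608, 1352 and 1528, a difference of -0.65 (SE 0.08, limma adjusted p = 6.79e-06). Sdhb was 2695, 2549 and 2919 against 2000, 1855 and 1950, a difference of -0.49 (SE 0.08, limma adjusted p = 5.87e-05). None of the 3 genes overlapped between the groups. Atp5l, a small membrane subunit, differed by -0.63, but 84.8% of its 50-base stretches occur in other annotated genes, and the call was lost without Lyz2Cre control replicate 3 or Lyz2Cre-BHLHE40-Fl control replicate 1 or 2 (limma adjusted p up to 0.143).

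With LPS the label difference was measured in other libraries, which both LPS comparisons also use. In this comparison 37.4% of all genes were called. Of the nuclear members, 27 of 79 were called lower (34.2%, against 19.8% of all genes) and 3 higher (3.80%, against 17.7%), with a median of -0.18. With equal totals 6 were lower (against 11.0% of all genes) and 13 higher (against 30.4%), with a median of 0.10, which is 0.12 below that of all genes (0.22). Ndufv3 was 878, 1036 and 933 in Lyz2Cre and 569, 492 and 536 in Lyz2Cre-BHLHE40-Fl, a difference of -0.83 (limma adjusted p = 1.60e-06), and Cox8a was 2651, 2824 and 2832 against 1525, 1521 and 1712, a difference of -0.81 (limma adjusted p = 4.99e-07). Ndufs3 and Ndufs4, which had risen with LPS in Lyz2Cre, were lower in Lyz2Cre-BHLHE40-Fl with LPS by log2 differences of -0.71 and -0.60. Ndufa1, a small membrane subunit encoded on the X chromosome, differed by -0.64. In complex V Atp5c1, the gamma subunit of the rotor, and Atp5j2, a small membrane subunit, differed by -0.43 (limma adjusted p = 0.000433) and -0.40 (limma adjusted p = 0.00187). Ndufs5, of complex I, differed by -0.74, and leaving out replicate 2 or 3 of either LPS group ended this call (limma adjusted p up to 0.0750). Ndufv3, Cox8a, Ndufs3, Ndufs4, Ndufa1 and Cox6a2 were called lower under the 5 scalings. Sdha, Ndufa4 and Atp5g1 were the 3 called higher. The Sdha call (0.31, limma adjusted p = 0.0146) was lost without Lyz2Cre LPS replicate 2 or Lyz2Cre-BHLHE40-Fl LPS replicate 2 or 3 (up to 0.0940), and the Atp5g1 call (1.07, limma adjusted p = 0.0145) without Lyz2Cre LPS replicate 2 or Lyz2Cre-BHLHE40-Fl LPS replicate 3 (up to 0.0569). The difference between the label effects of controls and LPS is the interaction, in which 18.8% of all genes were called. It called 3 nuclear members higher (3.80%, against 9.52% of all genes) and 1 lower (1.27%, against 9.31%), the Sdha, Cox5a, Atp5j and Ndufa6 already described.

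Ndufa4 was the 1 nuclear member called higher in Lyz2Cre-BHLHE40-Fl controls and 1 of the 3 called higher there with LPS. It encodes a subunit of cytochrome c oxidase, and AA467197 (also named Nmes1) encodes a paralog that is known to take the place of NDUFA4 in the complex of stimulated macrophages. Ndufa4 had values of 535, 383 and 487 in Lyz2Cre controls, 504, 549 and 456 in Lyz2Cre with LPS, 1469, 1589 and 1388 in Lyz2Cre-BHLHE40-Fl controls and 1800, 1431 and 1476 in Lyz2Cre-BHLHE40-Fl with LPS. Every Lyz2Cre-BHLHE40-Fl library was above every Lyz2Cre library, while LPS and control libraries overlapped under both labels. The label difference was 3.16-fold in controls (log2 1.67, SE 0.12, limma adjusted p = 3.43e-09) and 3.12-fold with LPS (log2 1.64, SE 0.12, limma adjusted p = 5.51e-09). The LPS changes were 0.11 and 0.08 and were not called (limma adjusted p = 0.476 and 0.630). Over the 5 scalings the label differences ranged from 1.63 to 1.96 in controls and from 1.59 to 1.92 with LPS.

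AA467197, which falls outside the name rule, ran the other way. It was 2865, 2553 and 2403 in Lyz2Cre controls, 35451, 40276 and 40111 in Lyz2Cre with LPS, 42.9, 43.4 and 41.3 in Lyz2Cre-BHLHE40-Fl controls and 11241, 10137 and 9907 in Lyz2Cre-BHLHE40-Fl with LPS. None of the 4 groups overlapped. It was 14.8-fold higher with LPS in Lyz2Cre (log2 3.89, SE 0.08, limma adjusted p = 6.26e-17) and 245-fold higher with LPS in Lyz2Cre-BHLHE40-Fl (log2 7.90, SE 0.08, limma adjusted p = 5.20e-21). Between labels it was 61.3-fold lower in Lyz2Cre-BHLHE40-Fl controls and 3.70-fold lower with LPS, and the difference of the LPS changes was 4.01 (SE 0.11, limma adjusted p = 1.82e-13). The ratio of AA467197 to Ndufa4 within a library, which needs no scaling, was 4.93 to 6.67 in Lyz2Cre controls, 70.3 to 88.0 in Lyz2Cre with LPS, 0.0273 to 0.0298 in Lyz2Cre-BHLHE40-Fl controls and 6.25 to 7.09 in Lyz2Cre-BHLHE40-Fl with LPS. Ndufa4l2, the hypoxia-responsive relative, averaged 1.87 to 5.40 over the groups and was not called in any comparison. The macrophage and mesothelial markers given above moved with the genotype label as well, and their part in the label differences of the pair was not tested.

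**Figure D4:**
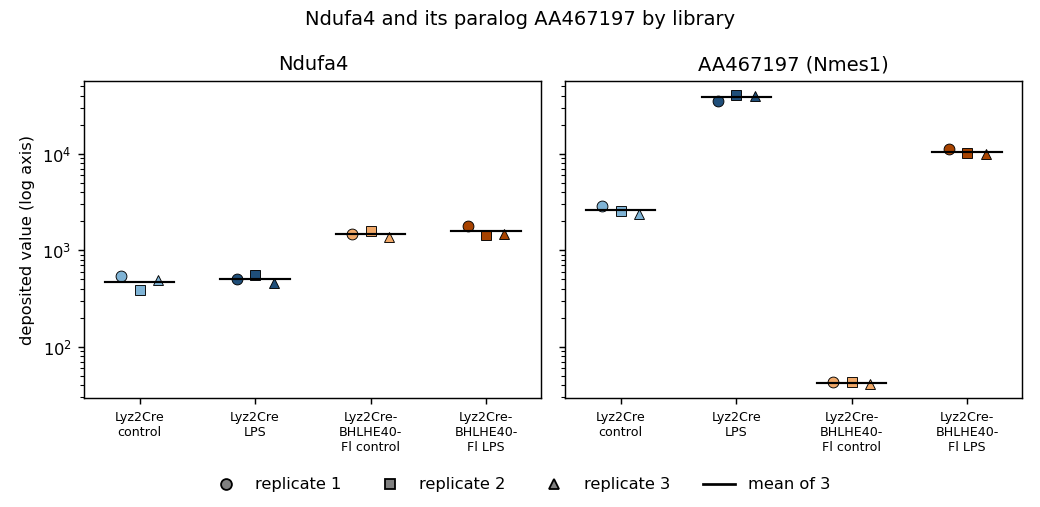
Deposited values on a log axis of Ndufa4 and AA467197 in the 12 libraries, with 1 point per library, the marker shape giving the replicate number and the line the mean of 3. Ndufa4 lies at 383 to 549 in Lyz2Cre and at 1388 to 1800 in Lyz2Cre-BHLHE40-Fl, and AA467197 at 41.3 to 43.4 in Lyz2Cre-BHLHE40-Fl controls and at 35451 to 40276 in Lyz2Cre with LPS.

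Since Bhlhe40 encodes an E-box binding protein, the RefSeq promoter windows of this pair (GRCm38.p6, 250 bases before the start) were searched for the E-box CACGTG, which reads the same on both strands. The AA467197 window holds it at position -82 from the RefSeq start, on chromosome 2, and the Ndufa4 window on chromosome 6 does not hold it. The E-box was present in a window of 6 of 66 nuclear members with a RefSeq match (9.09%) and of 6.86% of all 27025 genes. Shown are the stretches of the 2 windows outside annotated exons, 95 bases for AA467197 (chr2:122637755-122637849, plus strand), with the E-box in capitals, and 203 bases for Ndufa4 (chr6:11907498-11907700, minus strand), with no capitals. A match is a description of letters and shows no binding.
AA467197: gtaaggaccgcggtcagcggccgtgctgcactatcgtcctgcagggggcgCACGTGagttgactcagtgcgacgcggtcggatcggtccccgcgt
Ndufa4: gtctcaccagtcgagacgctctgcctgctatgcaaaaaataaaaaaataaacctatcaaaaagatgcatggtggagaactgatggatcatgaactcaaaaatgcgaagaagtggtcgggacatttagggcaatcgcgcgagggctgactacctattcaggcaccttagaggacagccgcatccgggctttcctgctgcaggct

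Nuclear subunit genes are also known for sites of NRF1 and of ETS-family factors (GABP) in their promoters. The NRF1 half-site GCATGCGC, searched on both strands, was present for 8 of the 66 matched members (12.1%) and for 2.56% of all genes, and the ETS core CCGGAAG for 12 of 66 (18.2%) and 7.83% of all genes. The consensus site of NF-kB, a factor activated by LPS, was present for 1 (1.52%) and for 4.46% of all genes. The half-sites of 4 members named above are shown with 10 bases on each side, the motif in capitals, from Ndufa6 (chr15:82354357-82354384, minus strand), Sdhb (chr4:140961207-140961234, plus strand), Cox6a1 (chr5:115349101-115349128, minus strand) and Atp5g2 (chr15:102671070-102671097, minus strand).
Ndufa6: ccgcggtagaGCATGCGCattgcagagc
Sdhb: agcccagtggGCATGCGCcctacgggcc
Cox6a1: ggaacggggcGCATGCGCgctctcgctc
Atp5g2: ctccggccgcGCATGCGCagagccttcc
Among these 4, Ndufa6 and Sdhb were called lower and Cox6a1 higher with LPS in Lyz2Cre-BHLHE40-Fl, and Atp5g2 was not called.

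Of the 13 mitochondrially encoded protein genes, 7 had values and 6 were listed at 0 in all 12 libraries: mt-Nd3, mt-Nd4l, mt-Co2, mt-Co3, mt-Atp6 and mt-Atp8. Cells with a working chain use these genes, so a listed 0 gives no level. Of 50-base stretches of their transcripts, 100% in mt-Co2, 99.9% in mt-Co3, 99.5% in mt-Atp6, 98.8% in mt-Nd4l and 98.0% in mt-Nd3 also occur in another annotated gene, mostly unprocessed pseudogenes on chromosome 1, and 0% do in mt-Atp8. Of the 7 with values, mt-Nd4 shared 62.2%, mt-Co1 51.1%, mt-Nd2 8.19% and mt-Nd5 7.61%, and mt-Nd1, mt-Cytb and mt-Nd6 0%. The copies had values of 0 to 5.50. How the counting treated such stretches is not given in the sources used here, so levels of mt-Nd4 and mt-Co1 are uncertain and are compared only with themselves. To show how close the copies are, the first 62 bases of mt-Nd3 (chrM:9459-9520, plus strand) and of its copy Gm28438 (chr1:24613058-24613119, minus strand) are given from GENCODE M21 transcripts (mm10), with the base that differs in capitals (T3C, counted from 1 at the first base of mt-Nd3), the only mismatch in 345 aligned bases.
mt-Nd3: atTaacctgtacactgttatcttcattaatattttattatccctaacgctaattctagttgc
Gm28438: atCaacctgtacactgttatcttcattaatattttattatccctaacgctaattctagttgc

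Under LPS in Lyz2Cre 2 of the 7 mitochondrially encoded members were called lower (28.6%, against 23.9% of all genes) and 0 higher, with a median of -0.46. The cytochrome b gene mt-Cytb, the catalytic subunit of complex III, was 5512, 5772 and 6789 in controls and 4319, 3664 and 4428 with LPS, with no overlap and a log2 change of -0.54 (SE 0.19, limma adjusted p = 0.0231). The complex I gene mt-Nd1 was 16240, 15813 and 26792 against 13922, 11723 and 13618, a change of -0.54 (SE 0.21, limma adjusted p = 0.0396). Both were called under the 5 scalings, and both depended on single libraries. The mt-Cytb call was lost without Lyz2Cre control replicate 3 or LPS replicate 2 (limma adjusted p up to 0.0925), and that of mt-Nd1 without control replicate 3, any LPS replicate of Lyz2Cre or Lyz2Cre-BHLHE40-Fl control replicate 3 (up to 0.233). With equal totals 6 of 7 were called lower (against 46.5% of all genes), with a median of -1.18 against -0.58 for all genes. Under LPS in Lyz2Cre-BHLHE40-Fl it was likewise 6 of 7 (against 46.8%), with a median of -0.77 against -0.56.

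In Lyz2Cre-BHLHE40-Fl LPS called 1 of 7 higher on the deposited scale (14.3%, against 24.9% of all genes) and 0 lower, and that gene was mt-Nd6, the complex I subunit encoded on the opposite strand from the others. It was 121, 212 and 128 in controls and 213, 356 and 453 with LPS, a log2 change of 1.12 (SE 0.24, limma adjusted p = 0.000683), and with replicate 2 of the controls and replicate 1 of LPS at nearly equal values. In Lyz2Cre it was 179, 155 and 132 against 174, 185 and 213, which overlap, and the difference between the LPS changes did not pass (0.82, SE 0.34, limma adjusted p = 0.108). With equal totals the change in Lyz2Cre-BHLHE40-Fl was 0.51 and was not called. Relative to mt-Cytb in the same library, mt-Nd6 was 2.62% ± 0.654 in Lyz2Cre controls and 4.63% ± 0.536 with LPS (SD, n = 3). In Lyz2Cre-BHLHE40-Fl it was 2.02% ± 1.12 and 4.46% ± 0.819. In these same libraries mt-Cytb was called lower with LPS in Lyz2Cre and mt-Nd6 higher in Lyz2Cre-BHLHE40-Fl. The direction of the ratio follows in part from those calls, so it is a description and adds no separate support. The strand setting of the counting is not given in the sources used here, so reads of mt-Nd6 and of RNA from the opposite strand at that site cannot be told apart.

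Between the labels in controls, 0 of the 7 were called in either direction, with a median of 0.38. Without Lyz2Cre-BHLHE40-Fl control replicate 2, 3 were called higher, and 2 were without Lyz2Cre control replicate 3 or Lyz2Cre-BHLHE40-Fl LPS replicate 1. With LPS, 4 of 7 were called higher in Lyz2Cre-BHLHE40-Fl (57.1%, against 17.7% of all genes) and 0 lower, with a median of 0.62, whereas 27 of the 79 nuclear members were lower in the same comparison. mt-Cytb was 4319, 3664 and 4428 in Lyz2Cre and 5038, 9392 and 8435 in Lyz2Cre-BHLHE40-Fl, with no overlap, a difference of 0.84 on the log2 scale (SE 0.19, limma adjusted p = 0.00170) that was kept with each library left out. The complex I genes mt-Nd5, mt-Nd4 and mt-Nd6 differed by 0.75, 0.62 and 0.77 (limma adjusted p = 0.00820, 0.0302 and 0.0161). The mt-Nd4 groups overlapped, at 2964, 2510 and 2865 against 2907, 5109 and 5212. The 4 calls were made under the 5 scalings. With the 2 compared groups alone in the fit, only mt-Cytb and mt-Nd5 were called higher (limma adjusted p = 0.0422 and 0.0312), and mt-Co1 was called lower, at -0.20 (limma adjusted p = 0.0355). Without Lyz2Cre-BHLHE40-Fl LPS replicate 2 only mt-Cytb was called, and without replicate 3, 2 of the 7 were. mt-Co1, which encodes the catalytic subunit of complex IV, held 71.3% ± 0.703, 77.5% ± 1.71, 67.7% ± 1.44 and 68.5% ± 5.21 of the reads of the 7 genes in the 4 groups (SD, n = 3, in the order Lyz2Cre control, Lyz2Cre LPS, Lyz2Cre-BHLHE40-Fl control, Lyz2Cre-BHLHE40-Fl LPS). It was not called in any comparison of the limma fit over all 12 libraries on the deposited scale. With equal totals it was among the 6 of 7 called lower with LPS in Lyz2Cre-BHLHE40-Fl. Replicate 1 of Lyz2Cre-BHLHE40-Fl LPS had the lowest value of its group in each of the 7 genes.

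**Figure D5:**
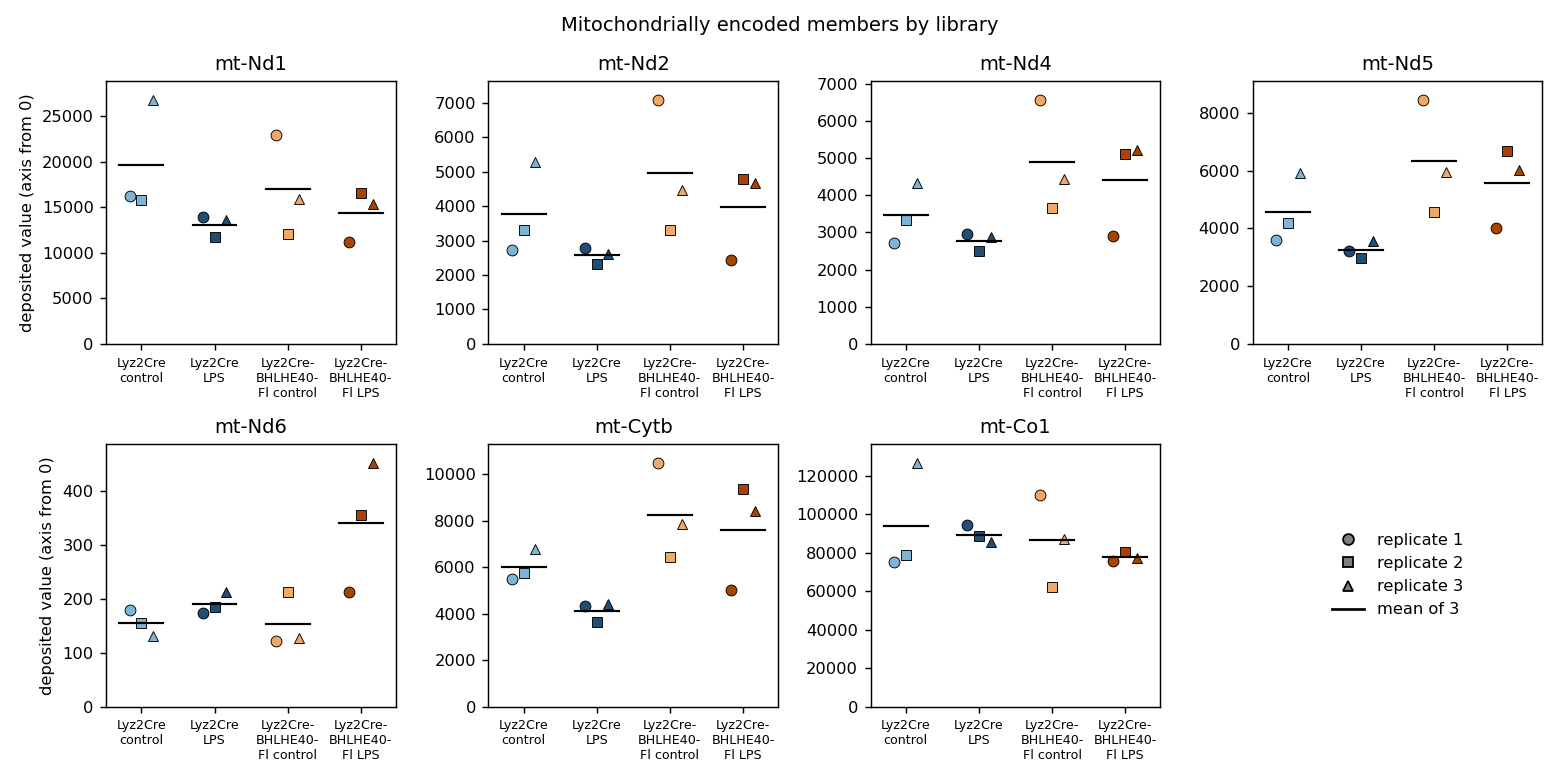
Deposited values (y axis from 0) of the 7 mitochondrially encoded members in the 12 libraries, with 1 point per library, the marker shape giving the replicate number and the line the mean of 3. Replicates 2 and 3 of Lyz2Cre-BHLHE40-Fl with LPS lie above all 3 Lyz2Cre LPS libraries in mt-Cytb and mt-Nd5, and replicate 1 lies low within its group.

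The other genes of the pathway were counted from fixed lists. All genes called higher and lower with LPS were 25.0% and 23.9% in Lyz2Cre and 24.9% and 25.6% in Lyz2Cre-BHLHE40-Fl, and with equal totals 11.7% and 46.5%, and 12.8% and 46.8%. Among 54 tested assembly factors, which build the complexes or insert their metals, 9 were called higher and 22 lower with LPS in Lyz2Cre and 15 higher and 16 lower in Lyz2Cre-BHLHE40-Fl, with medians of -0.17 and -0.07. With equal totals 6 were higher and 44 lower, and 7 higher and 39 lower. Sco1, a copper chaperone of complex IV, had the largest rise among them, from 386, 379 and 363 to 2647, 2977 and 2848 in Lyz2Cre (log2 2.90, limma adjusted p = 1.54e-15) and from 340, 334 and 368 to 1622, 1558 and 1478 in Lyz2Cre-BHLHE40-Fl (log2 2.16, limma adjusted p = 4.97e-14). Its rise was smaller in Lyz2Cre-BHLHE40-Fl by an interaction of -0.75 (limma adjusted p = 6.09e-05). The other named risers of the list, picked by the size of their change, also act on complex IV, although the list held more lower than higher calls in Lyz2Cre: Coa5 by 1.39 and 1.95, the copper carrier Cox17 by 1.36 and 1.63, Cox18, which inserts the mt-Co2 protein into the membrane, by 1.27 and 1.72, and Cox15, of heme A synthesis, by 1.50 and 1.27. The complex I assembly factor Tmem126b fell by 1.75 and by 1.59, and Lyrm7, a chaperone of the Rieske protein at a low level of 9.67 ± 1.84 in Lyz2Cre controls, fell by 1.66 in Lyz2Cre.

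Cycs, which encodes the mobile carrier between complexes III and IV, was 114, 126 and 125 in Lyz2Cre controls and 270, 339 and 348 with LPS (log2 1.38, limma adjusted p = 4.31e-07), and 88.0, 88.4 and 80.4 against 337, 264 and 228 in Lyz2Cre-BHLHE40-Fl (log2 1.66, limma adjusted p = 3.63e-08). Cyc1, the cytochrome c1 subunit of complex III, rose by 0.56 and 0.77. Among 24 genes of other entry points and exits of electrons, 7 were higher and 8 lower in Lyz2Cre and 9 higher and 7 lower in Lyz2Cre-BHLHE40-Fl. Equal totals gave 3 higher and 16 lower, and 4 higher and 15 lower. Gpd2, which passes electrons from glycerol 3-phosphate to ubiquinone, rose 3.69-fold and 4.39-fold (log2 1.88 and 2.14), and Pdss1, of the side chain of ubiquinone, rose by 2.01 and 2.63. Coq10a, a ubiquinone-binding protein, fell by 1.28 and by 1.92, and its relative Coq10b rose by 1.10 and 1.25. Coq8a, a kinase-like factor of ubiquinone synthesis, fell by 1.69 in Lyz2Cre-BHLHE40-Fl.

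Of 28 genes that copy, transcribe or process mitochondrial DNA and RNA, 9 were higher and 9 lower in Lyz2Cre and 10 higher and 9 lower in Lyz2Cre-BHLHE40-Fl. Equal totals gave 4 higher and 21 lower, and 4 higher and 18 lower. Pnpt1, an exoribonuclease that degrades mitochondrial RNA, rose 5.68-fold and 5.73-fold (log2 2.51 and 2.53). The transcription elongation factor Tefm rose by 1.40 under both labels and Slirp, which stabilises mitochondrial messenger RNA, by 1.08 and 1.45. The helicase Twnk fell by 1.72 and by 1.84 and the polymerase subunit Polg2 fell by 1.40 and by 1.89. Among 15 nuclear regulators 6 were higher and 7 lower in Lyz2Cre and 8 higher and 5 lower in Lyz2Cre-BHLHE40-Fl. Equal totals gave 1 higher and 10 lower, and 2 higher and 8 lower. Pparg was 739, 817 and 957 against 97.3, 103 and 106 in Lyz2Cre and 3236, 2516 and 2794 against 137, 150 and 134 in Lyz2Cre-BHLHE40-Fl, with log2 changes of -3.02 and -4.33. Pprc1, a coactivator related to PGC-1, was 440, 458 and 311 against 254, 208 and 263 in Lyz2Cre and 373, 463 and 383 against 698, 1101 and 1081 in Lyz2Cre-BHLHE40-Fl. It fell by 0.72 in the first and rose by 1.22 in the second, an interaction of 1.94 (SE 0.24, limma adjusted p = 1.42e-05). Of the PGC-1 coactivators, Ppargc1a fell by 1.73 and by 3.37 and Ppargc1b fell by 2.09 in Lyz2Cre. Gabpb1, a subunit of the ETS factor GABP, rose by 1.59 and 2.04.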

How the data were processed

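The table deposited by the authors holds a signal per gene in 12 libraries, which from its values is whole reads divided by 1 factor per library, 100% of values being whole multiples at a tolerance of 0.06. A read was worth 0.725 to 1.56. The submitters' processing notes name mm10, STAR, Cufflinks and Cuffdiff, without roles. Genes at 1 or more in at least 3 libraries (20419) entered a limma trend model (limma 3.58.1) of log2(value + 1) with 1 mean per group over all 12 libraries. Benjamini-Hochberg adjusted p-values run over all tested genes, and a gene was called below 0.05. The log2(value + 1) scale understates changes of low genes. The alternatives changed the scaling (equal totals, quantile normalization, TMM), the tool (edgeR 4.0.16 on recovered reads), the pseudocount (0.1 or 5), the filter (none, or at 5) or the model (the compared groups alone, the replicate block). Others asked for a log2 change over 0.5 or left out single libraries. All 86 members' identifiers are in GENCODE M21, which gave coordinates (mm10), exon lengths and transcripts. Promoters came from RefSeq (GRCm38.p6), matched by symbol or a unique synonym. The members and lists were chosen with earlier results of these data known. Named genes were fixed by rule: mitochondrially encoded members, up to 2 called, non-overlapping members per complex, comparison and direction with a group mean of at least 50, fixed isoform families, the Sdh genes, Bhlhe40, and the leading genes of each list. Ndufa9, Ndufv1, Ndufa1, Ndufb8, Ndufs8, Ndufb11, Ndufs7, Cox7b, Uqcrc1, Uqcr10, Uqcr11, Uqcrh and Atp5a1 were named after their values were seen.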

Additional observations from a re-analysis of the deposited data

Results flagged for a closer look

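The LPS change differed between the labels for 15 of the 75 named genes, by the interaction term of the limma model over all genes. Cox4i2 and Cox8b, named but at 0 in all 12 libraries, could not be tested. The interaction called 18.8% of all genes tested. The count of 15 cannot be compared with this share, since the naming rule itself used interaction calls and the size of LPS changes. Each value is the log2 LPS change in Lyz2Cre-BHLHE40-Fl minus that in Lyz2Cre. Among the respiratory chain members the differences were 0.64 for Sdha, 0.46 for Cox5a, 0.49 for Atp5j and -0.56 for Ndufa6. For AA467197, the paralog of Ndufa4, it was 4.01. Among assembly factors it was 0.56 for Coa5 (limma adjusted p = 0.000210) and -0.75 for Sco1. In the ubiquinone genes it was 0.62 for Pdss1 (limma adjusted p = 0.0298) and -0.64 for Coq10a (limma adjusted p = 0.00178). The regulators differed by 1.94 for Pprc1, 1.65 for Ppargc1b (limma adjusted p = 0.00315), -1.64 for Ppargc1a (limma adjusted p = 0.0283), -1.31 for Pparg (limma adjusted p = 8.92e-06) and 0.45 for Gabpb1 (limma adjusted p = 0.00813). Bhlhe40 itself differed by -0.81 (limma adjusted p = 8.45e-05). The call of Ppargc1a was lost when any 1 of 7 libraries was left out (limma adjusted p up to 0.0674). In the same interaction 6 of 10 macrophage markers were called higher and 0 lower (median 0.97), and of the 15 mesothelial and stromal markers 1 was higher and 3 were lower (median -0.51). The macrophage markers summed to 198872 to 210879 in Lyz2Cre with LPS and to 120457 to 123596 in Lyz2Cre-BHLHE40-Fl with LPS. Their part in these differences was not tested.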

How the results depend on the processing

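The counts of calls depended on the scaling and on the size of change asked for. In the order nuclear members higher and lower, equal totals gave 0 and 61 for LPS in Lyz2Cre, 0 and 52 for LPS in Lyz2Cre-BHLHE40-Fl, 4 and 8 between labels in controls, 13 and 6 between labels with LPS, and 6 higher for the interaction. Quantile normalization gave 8 and 27, 9 and 26, 3 and 12, and 6 and 16, with 2 lower for the interaction. For LPS in Lyz2Cre, TMM gave 11 and 16 and edgeR on recovered reads 12 and 16. Asking for a log2 change over 0.5 left 2 and 2, 2 and 0, 1 lower in controls, 1 and 3 with LPS, and 0 and 0 for the interaction. With the compared groups alone, 18 nuclear members were lower between labels in controls. Of the mitochondrially encoded members, those lower for LPS in Lyz2Cre were 1 with a pseudocount of 0.1, without a filter or with the compared groups alone, 6 with equal totals or quantile normalization, 4 with edgeR and 0 past a change of 0.5. For LPS in Lyz2Cre-BHLHE40-Fl, equal totals gave 0 higher and 6 lower, and quantile normalization 6 lower. Between labels 3 were higher in controls with equal totals or quantile normalization, and with LPS 2 were higher and 1 lower with the compared groups alone and 0 higher past a change of 0.5. The interaction called 2 nuclear members lower with a pseudocount of 5, a filter at 5 or the replicate block. Fewer libraries enter the fit of the compared groups alone, and for the other changes the cause was not tested.

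Leaving out 1 library, the mitochondrially encoded members called lower for LPS in Lyz2Cre ranged from 0 to 3, and those higher from 0 to 3 between labels in controls, 1 to 5 with LPS and 0 to 2 for the interaction. Nuclear members lower between labels in controls ranged from 18 to 38, higher with LPS from 1 to 4, and for the interaction from 1 to 5 higher and 1 to 6 lower. With the replicate block the nuclear counts were 20 and 9, 26 and 10, 1 and 29, 3 and 27, and 3 and 2. Over all tested genes no pairing by replicate number was seen, as the 18 correlations of same-numbered libraries lay between -0.066 and 0.028. Pairing that acts on few genes would not show in these correlations.

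Single genes were called under another scaling in the direction opposite to their change on the deposited scale. Some of them, such as Ndufa4 and Sdhc, had not been called on the deposited scale. For LPS in Lyz2Cre, equal totals gave -0.28 for Atp5b, -0.39 for Atp5f1, -0.42 for Atp5g3, -0.72 for Atp5j, -0.39 for Cox4i1, -0.42 for Cox5a, -0.50 for Cox6a1, -0.63 for Cox6b1, -0.65 for Cox7a2l, -0.48 for Cox8a, -0.61 for Ndufa4 and -0.66 for Sdhc, and quantile normalization -0.67 for Atp5b, -0.51 for Cox4i1, -0.50 for Cox6b1 and -0.30 for Sdhc. For LPS in Lyz2Cre-BHLHE40-Fl, equal totals gave -0.30 for Atp5f1, -0.54 for Cox4i1, -0.25 for Cox6a1, -0.49 for Cox6b1, -0.53 for Cox8a, -0.32 for Ndufa12, -0.54 for Ndufa4, -0.40 for Ndufs3, -0.30 for Sdha, -0.54 for Sdhc and -0.43 for Sdhd, and quantile normalization -0.41 for Atp5b, -0.70 for Cox4i1, -0.43 for Cox6b1, -0.24 for Cox8a and -0.28 for Sdha. Between labels with LPS, quantile normalization gave 0.20 for Atp5b. Beside these 33 reversals, 3564 values of named genes under the alternatives stayed on the same side of the threshold. Called ones among them kept their direction, and uncalled ones were counted whatever their direction. A further 259 lost the call and 81 gained one in the same direction. At 20489417 reads or more per library, counting error is small for most members and large for Cox6b2, Ndufa4l2 and Atp5g2, whose values are under 27.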
